A study of Mus musculus with 2 samples.

Results

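The genes described here are 10 mouse genes that mark stem and progenitor cells, 6 of them coding for cell surface proteins (Cd24a, Cd44, Prom1, Ly6a, Kit and Thy1) and 4 for transcription factors (Klf4, Sox2, Nanog and Pou5f1). They were listed by symbol, and every probe set that carries exactly 1 gene symbol, one of these, was taken. Of 18193 genes with such a probe set on the array, 9 of the 10 were found, with 16 of the 45101 probe sets. For Ly6a no probe set naming it alone was found in the annotation used, and it is not analysed here. The cells are MOS-J, a mouse osteosarcoma line, and the series holds 2 arrays of them. The DKK1 group is 1 array of cells given a lentivirus with human DKK1, and the control group is 1 array of cells given a control lentivirus. Per the labels' protocols, viral cells were clones selected with G418. The same protocols describe a second, non-viral route with blasticidin selection, then a red fluorescent mitochondrial label and sorting. The labels of both arrays name a lentivirus. The sources used here do not say whether the profiled cells also underwent any step of this second description. Both arrays come from the same parental line, and a difference between them cannot be told apart from a difference between the clones or selected pools behind them. With 1 array per group there is no replicate, no test and no p-value.

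CD24 and Thy-1 are small glycoproteins held in the membrane by a glycosylphosphatidylinositol (GPI) lipid, as is Sca-1, the product of Ly6a. CD44 is the main receptor for the matrix polysaccharide hyaluronan, prominin-1 (Prom1, CD133) is a pentaspan protein of membrane protrusions, and Kit is the receptor tyrosine kinase for stem cell factor. In tumours, combinations of CD24, CD44, CD133 and Kit are used to sort cells that start new tumours, and CD44, Thy-1 and Sca-1 are common on mesenchymal cells. Pou5f1 (OCT4), Sox2, Nanog and Klf4 maintain the pluripotent state of embryonic stem cells, and Sox2 and Klf4 also work in many differentiated and tumour cells, including cells of the osteoblast lineage. DKK1 is a secreted inhibitor of canonical Wnt signalling.

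The values are MAS5 signals, a linear intensity per probe set scaled on each array by itself. A probe set was taken as measured if its 2 signals averaged at least 71.3, the median of these averages. Differences are log2(signal + 16.6) of the DKK1 array minus the control array, averaged per gene over its measured probe sets. A gene was called where this reached 1 (2-fold) with the same sign in all its measured probe sets. Of 11058 measured genes, 11.7% were called higher and 6.91% lower, 18.6% in all, and the median difference was 0.10. Higher genes were 62.9% of the calls, against 51.4% with median centring, 51.1% with quantile normalization, 51.5% with loess, 85.6% with scaling to 18 hybridisation control probe sets and 16.6% with scaling to the poly-A ones. These 2 kinds of spike-in RNA disagreed, with median log2 ratios of −0.37 and 0.64, and they moved the median gene to 0.45 and −0.50. Between probe sets of 1 gene the pooled SD was 0.45 on the log2 scale, which describes agreement within the arrays and not between cultures. The 3' to 5' ratio was 0.759 on the DKK1 array and 0.823 on the control array for Gapdh, and 1.25 and 1.61 for Actb.

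Of the 10 genes, 4 were measured (Cd24a, Cd44, Klf4 and Sox2), with 9 probe sets that all exceeded 71.3 on both arrays. Cd24a was higher in the DKK1 cells, Klf4 was lower, and Cd44 and Sox2 differed by less than 2-fold. The 5 genes below the filter were Prom1, Kit, Thy1, Nanog and Pou5f1, whose 6 probe sets had signals of 2.56 to 52.9 on the DKK1 array and 2.15 to 37.8 on the control array. So 1 of 4 measured genes was called higher and 1 lower, where 11.7% and 6.91% of all measured genes were, and with 4 genes these shares say little. The plot of probe set signals shows every value.

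**Figure D1:**
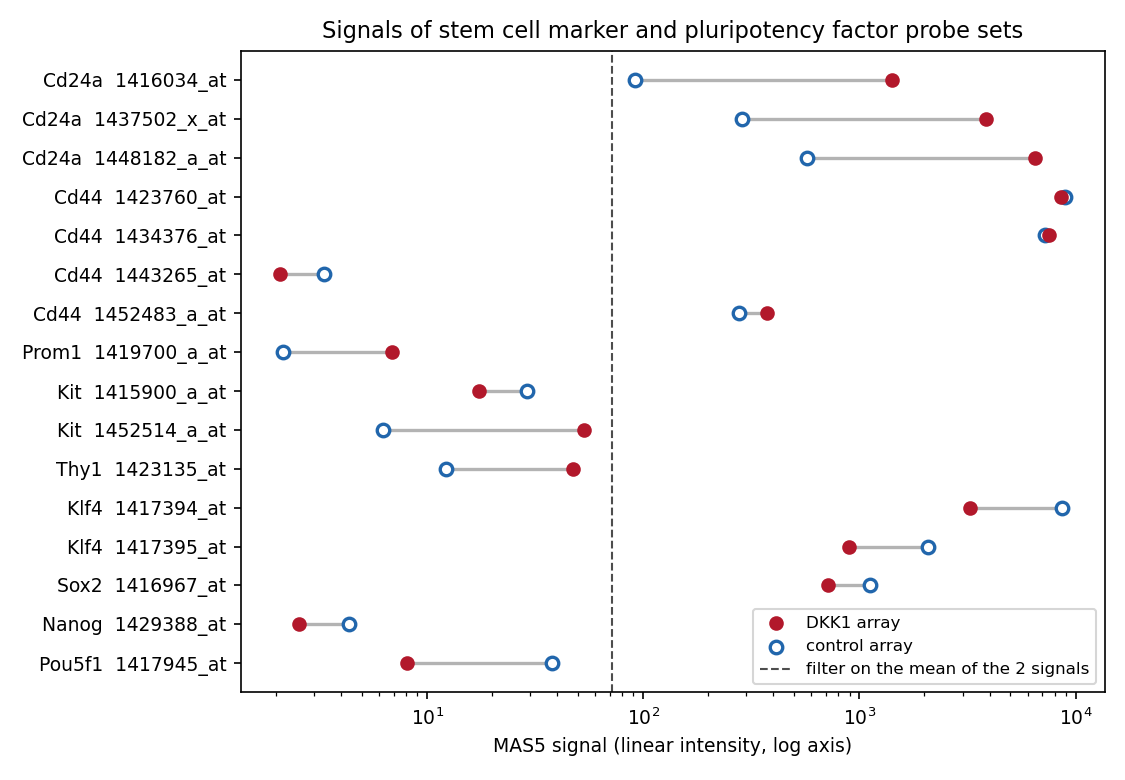
MAS5 signal (log axis) of each of the 16 probe sets on the DKK1 array (filled red) and the control array (open blue), with the filter of 71.3 as a dashed line. The 3 Cd24a probe sets lie far to the right on the DKK1 array, both Klf4 probe sets lie to the left, 3 Cd44 probe sets nearly coincide, and the probe sets of Prom1, Kit, Thy1, Nanog and Pou5f1 stay left of the filter on both arrays.

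Among the surface markers, Cd24a stood out. Its probe set 1416034_at had a signal of 1408 in DKK1 cells and 91.3 in control cells, 15.4 times as high. The probe set 1437502_x_at had 3847 in DKK1 cells and 285 in control cells, 13.5 times as high. The third, 1448182_a_at, had 6489 in DKK1 cells and 574 in control cells, 11.3 times as high. All 3 therefore moved the same way and by a similar factor, 13.3-fold as their geometric mean. The suffix _x_at marks a probe set with probes that may match other sequences, and _a_at one that reads several transcripts of a gene. The plain probe set 1416034_at gave the widest ratio of the 3. The log2 difference of Cd24a was 3.62 with an SD of 0.14 between the 3 probe sets, and 37 of the 11058 measured genes had a larger one. All 3 probe sets also exceeded the filter in control cells. The call held under all 12 processing alternatives, with differences of 2.99 to 3.99.

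Cd44 was bright on both arrays and hardly differed between them. The probe set 1423760_at had a signal of 8597 in DKK1 cells and 8985 in control cells. The probe set 1434376_at had 7573 in DKK1 cells and 7245 in control cells. These 2 differ in opposite directions by −0.06 and 0.06 on the log2 scale. A dimmer one, 1452483_a_at, had 374 in DKK1 cells and 278 in control cells, a difference of 0.41. The fourth, 1443265_at, stayed below the filter at 2.09 in DKK1 cells and 3.34 in control cells. The gene's difference was 0.14 (SD 0.24 between 3 probe sets), near the median of all genes at 0.10, and its sign is not settled, since it was 0.50 with hybridisation scaling and −0.49 with poly-A scaling. Across the 12 alternatives it was above 0 in 8 and below 0 in 4, and in none was it called.

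The other surface markers had no signal above the filter on either array. Thy1, which marks thymocytes, neurons and many fibroblasts, had 47.3 in DKK1 cells and 12.3 in control cells. Kit, the receptor of stem cell factor, had 17.4 in DKK1 cells and 29.1 in control cells at 1415900_a_at. At 1452514_a_at it had 52.9 in DKK1 cells and 6.27 in control cells, so its 2 probe sets disagree in direction. Prom1 had 6.87 in DKK1 cells and 2.15 in control cells. Such dim MAS5 signals are noisy and no detection call was used, so no fold is given, and a low signal does not show that a gene is silent. Both arrays thus carried measured Cd24a and Cd44 signal without measured Prom1, Kit or Thy1, and they differed in the level of Cd24a.

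Among the transcription factors, Klf4 was the only one called. Klf4 is a zinc-finger factor that restrains proliferation in several differentiated tissues and is one of the factors used to reprogram fibroblasts. Its probe set 1417394_at had a signal of 3255 in DKK1 cells and 8620 in control cells, 2.65-fold lower. The probe set 1417395_at had 894 in DKK1 cells and 2070 in control cells, 2.32-fold lower. Both probe sets lay on the same side, and both remained well above the filter in DKK1 cells. The log2 difference was −1.30 with an SD of 0.14 between the 2 probe sets, and 440 of the 11058 measured genes had a lower one. The call held under 11 of the 12 alternatives and ended with hybridisation scaling, at −0.93, while poly-A scaling gave −1.93. Measured from the median of all genes under each alternative, Klf4 lay between −1.46 and −1.20.

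Sox2, an HMG-box factor of neural, epithelial and osteoprogenitor cells, had 1 probe set. Its signal was 714 in DKK1 cells and 1121 in control cells, 1.57-fold lower and a difference of −0.64. This was within 2-fold, and 14.2% of all measured genes had a lower difference. The sign was negative under all 12 alternatives, from −1.26 with poly-A scaling, the 1 setting under which it was called, to −0.27 with hybridisation scaling. The RefSeq span of Sox2 lies inside that of the long noncoding RNA gene Sox2ot, whose probe set had 1.88 in DKK1 cells and 17.6 in control cells, both below the filter. The other factors of the core pluripotency circuit were below the filter as well. Pou5f1, the POU-domain partner of Sox2 in embryonic stem cells, had 8.11 in DKK1 cells and 37.8 in control cells. Nanog, a homeodomain factor, had 2.56 in DKK1 cells and 4.35 in control cells. Pou5f1 and Nanog thus stayed below that filter on both arrays, while Klf4 and Sox2 were measured on both.

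The start-site windows of the 2 measured factors are shown because of the 4 factors these were above the filter. Each runs 250 bases before to 50 after the annotated start, from a RefSeq table on build GRCm38.p6, in which 7 of the 10 genes were matched. Klf4 lies at chr4:55532426-55532725 on the minus strand and Sox2 at chr3:34649745-34650044 on the plus strand, and both are printed 5′ to 3′ along the gene. Capitals mark GC boxes (GGGCGG on either strand), the kind of site that Sp and Klf zinc-finger proteins bind, and in Klf4 also 1 E-box (CACGTG).
Klf4: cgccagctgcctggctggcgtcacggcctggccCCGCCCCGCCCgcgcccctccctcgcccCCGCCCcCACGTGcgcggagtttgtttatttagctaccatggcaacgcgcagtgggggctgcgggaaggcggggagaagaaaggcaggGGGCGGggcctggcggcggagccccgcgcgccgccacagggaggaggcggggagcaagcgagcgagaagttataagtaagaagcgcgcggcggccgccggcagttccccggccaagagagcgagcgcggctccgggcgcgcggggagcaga
Sox2: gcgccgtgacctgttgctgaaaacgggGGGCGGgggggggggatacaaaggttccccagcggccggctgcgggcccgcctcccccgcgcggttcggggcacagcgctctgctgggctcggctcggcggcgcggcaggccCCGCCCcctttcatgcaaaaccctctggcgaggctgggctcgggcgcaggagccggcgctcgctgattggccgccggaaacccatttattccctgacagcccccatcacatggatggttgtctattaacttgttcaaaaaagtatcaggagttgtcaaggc
The Klf4 window holds 4 GC boxes, starting 217, 212, 189 and 101 bases before the start, of which the first pair share a base, and the E-box 182 bases before it. The Sox2 window holds 2 GC boxes, 223 and 111 bases before the start. At least 1 GC box occurs in 35.7% of the 32851 windows in the table and the E-box in 7.15%. The windows were 74.3% and 66.3% G or C for Klf4 and Sox2, against a median of 52.7%. Neither window holds the TCF/LEF letters CTTTGAT (3.73% of windows), the octamer ATGCAAAT (1.74%), the Sox letters ACAATGG (3.66%) or CACCC (57.5%), on either strand. These are matches of letters and not measured binding.

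Set among all measured genes, the 4 genes fell at different points of the distribution. The share of measured genes with a lower difference was 99.7% for Cd24a, 52.0% for Cd44, 14.2% for Sox2 and 3.98% for Klf4. The histogram of differences shows these positions. Measured genes were also split by mean signal into 4 equal classes. In the brightest class, which holds Cd24a, Cd44 and Klf4, 10.2% were called higher and 10.3% lower. In the next class, which holds Sox2, those shares were 10.2% and 6.26%.

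**Figure D2:**
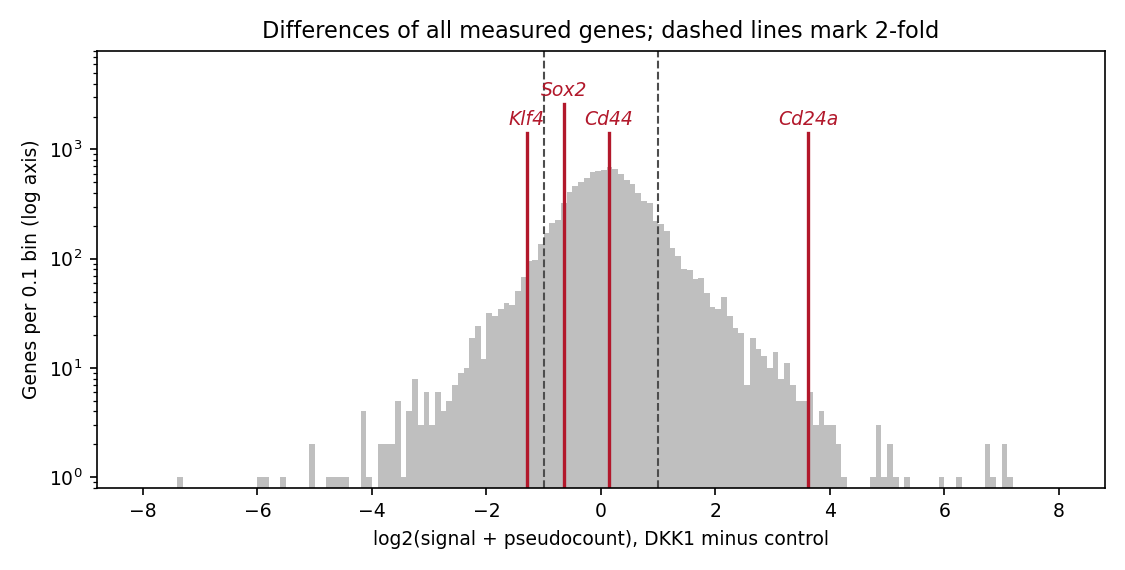
Number of genes (log axis) by log2 difference, DKK1 minus control, for the 11058 measured genes, with red lines at the 4 measured genes and dashed lines at 2-fold. Cd24a at 3.62 lies in the far right tail, Klf4 at −1.30 lies beyond the left 2-fold line, Sox2 at −0.64 lies inside it, and Cd44 at 0.14 lies near the peak.

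The plot by processing setting shows how far each value moved. Hybridisation and poly-A scaling gave the widest shifts for these 4 genes.

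**Figure D3:**
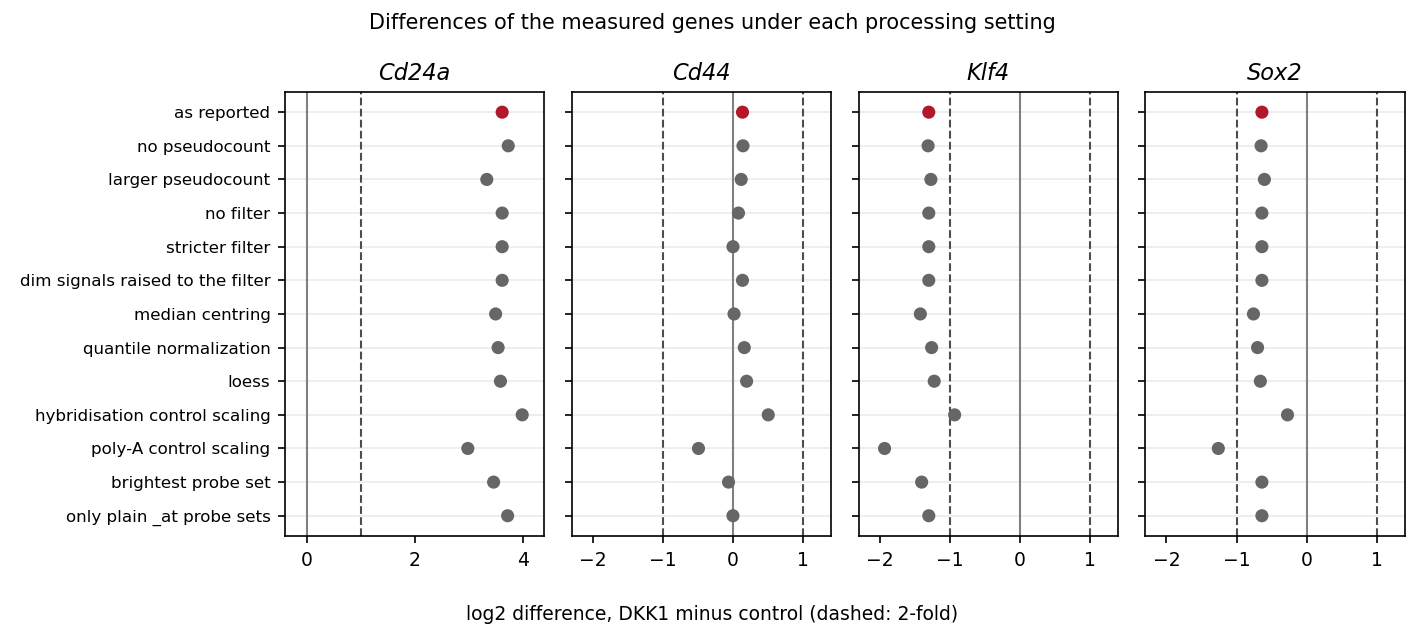
Log2 difference, DKK1 minus control, of Cd24a, Cd44, Klf4 and Sox2 as reported (red, top) and under each of the 12 alternatives (grey), with 0 as a solid and 2-fold as a dashed line. Cd24a stays beyond 2-fold throughout, Klf4 crosses the line only with hybridisation scaling, Sox2 only with poly-A scaling, and Cd44 stays near 0.

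Related genes were read from 15 lists with 269 distinct genes, of which 141 were measured. Of these, 42 (29.8%) were called, 30 higher and 12 lower, beside 18.6% of all measured genes. Nothing particular to these lists is read from that share. Of the 42 calls, 13 held under all 10 alternatives that can include every gene. Under poly-A scaling the median of 11 lists was below 0, while all 15 were above 0 as deposited.

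The wider pluripotency network was mostly below the filter. Its list has 29 genes with a probe set, of which 8 passed the filter, with 2 higher, 3 lower and a median of 0.43, or −0.16 with poly-A scaling. Dppa2, a chromatin protein gene active in embryonic stem and germ cells, had signals of 390 and 1093 in DKK1 cells against 14.7 and 75.5 in control cells. Its difference was 3.64 (SD 0.07 between 2 probe sets), or 3.03 with poly-A scaling. With the dim signal raised to the filter, Dppa2 was 8.90-fold higher at the deposited scaling. The brighter of these probe sets ends in _s_at, which marks probes shared between transcripts. Myc, the growth regulator that is also a reprogramming factor, had 1235 in DKK1 cells and 3597 in control cells, a difference of −1.53. Esrrb, an orphan nuclear receptor of the naive state, had 17.4 in DKK1 cells and 132 in control cells at its 1 measured probe set, and 2 dim probe sets ended the call when included (−0.68).

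Relatives of the factors went both ways. In the Klf family without Klf4, 4 of 12 measured genes were called higher and 1 lower, and the median was 0.42, or −0.19 with poly-A scaling, where all 4 higher calls ended. Klf2, which can stand in for Klf4 in mouse embryonic stem cells, had 339 in DKK1 cells and 117 in control cells (1.41). Klf7, a neuronal Klf, was higher at 1.34 (SD 0.38 between 4 probe sets), and Klf14 was at 1.29. The remaining higher one was Klf6 at 1.13, named after its value was seen. Klf5, the other Klf of embryonic stem cells, had 85.2 in DKK1 cells and 224 in control cells (−1.24), and 5 alternatives ended that call. In the Sox family without Sox2, 3 of 7 measured genes were called higher and 1 lower, and the median was 0.56, or 0.03 with poly-A scaling. They were Sox10 (1.71), Sox5 (1.50), Sox4 (1.06) and Sox21 (−1.83). Each call ended under 2 or more alternatives, and that of Sox4 under 9. With all its probe sets included, Sox10 turned to −0.16. Of the Pou family without Pou5f1, 3 of 9 genes were measured and Pou3f1, a neural factor, was higher (1.83), a call that ended with dim signals raised (0.82). The median was 0.26, or −0.36 with poly-A scaling.

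Other surface markers of mesenchymal progenitors were mostly measured, 18 of 23, with 5 higher and 3 lower. Their median was 0.35, or −0.25 with poly-A scaling. Itga6, the integrin alpha 6 chain (CD49f) used to sort stem cells of several epithelia, had 20.6 and 197 in DKK1 cells against 363 and 1407 in control cells. Its difference was −3.04 (SD 0.44 between 2 probe sets), or −2.76 with hybridisation scaling. With the dim signal raised to the filter, Itga6 was 6.03-fold lower at the deposited scaling. Cd248, endosialin of stromal fibroblasts, had 1991 in DKK1 cells and 250 in control cells (2.91). Pdgfrb, a growth factor receptor of pericytes, had 1401 and 18158 in DKK1 cells against 216 and 4388 in control cells (2.32). Cd34, a sialomucin of blood and endothelial progenitors, had 197 in DKK1 cells and 33.5 in control cells (2.10, or 1.52 with poly-A scaling). With the dim signal raised to the filter, Cd34 was 2.77-fold higher at the deposited scaling. The remaining calls were Pdgfra (1.20, SD 1.07 between 2 probe sets) and Vcam1 (1.04) higher and Nt5e (−1.47) and Procr (−1.20) lower. Of these, Vcam1, Nt5e and Procr were named after their values were seen. Each call ended under 2 or more alternatives, and that of Vcam1 under 6. Of other stem cell markers 12 were measured, with 2 higher, 0 lower and a median of 0.24, or −0.35 with poly-A scaling. These were the kinase gene Dclk1 (1.24, SD 0.57 between 7 probe sets) and the BMP antagonist gene Grem1 (1.01). Both calls ended with poly-A scaling, and each under 3 alternatives in all.

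**Figure D4:**
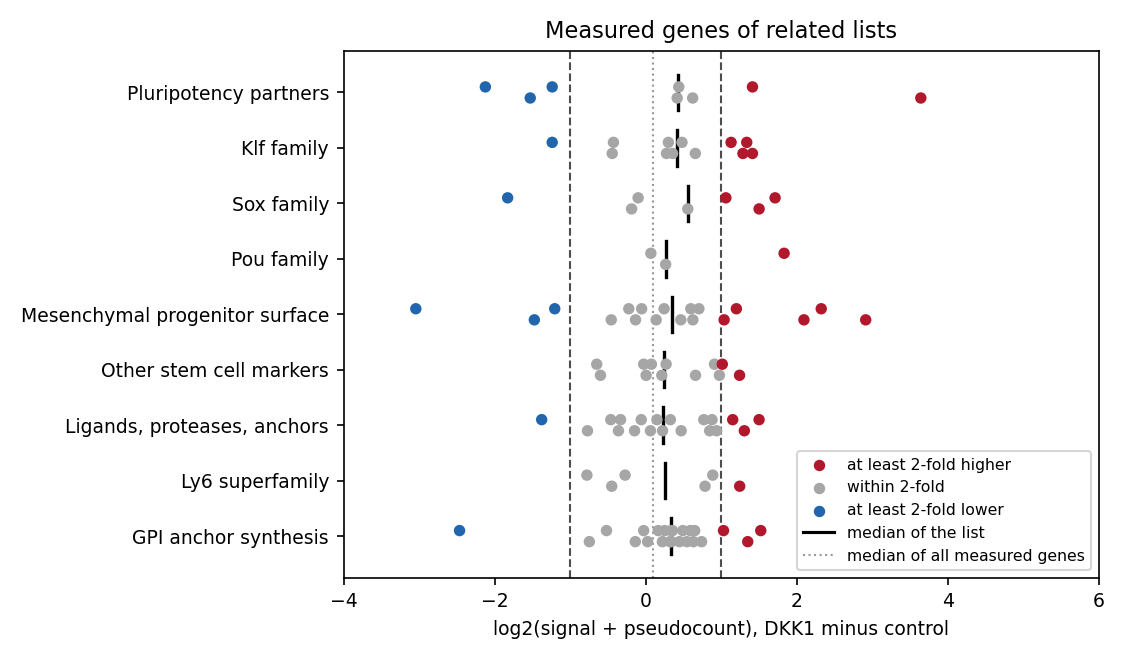
Log2 difference, DKK1 minus control, of each measured gene (points) in 9 lists of related genes, with the list median as a black bar, the median of all genes as a dotted line and 2-fold as dashed lines. Red genes are higher, blue lower and grey within 2-fold, and the medians of the lists shown lie between 0.22 and 0.56 as deposited, while with poly-A scaling all of them but the Sox family's were below 0.

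Ligands, proteases and anchors of the surface markers had 3 of 19 measured genes higher and 1 lower, and their median was 0.22, or −0.41 with poly-A scaling. Siglecg, a receptor that binds CD24, had 643 in DKK1 cells and 216 in control cells (1.50, or 0.88 with poly-A scaling). Adam10, a protease that sheds CD44, was higher at 1.31 (SD 0.24 between 2 probe sets), with 2 dim probe sets that ended the call when included (0.43). Has2, which makes hyaluronan, had 156 in DKK1 cells and 61.2 in control cells (1.15), and 6 alternatives ended the call. Fyn, a Src-family kinase linked to GPI-anchored proteins at the inner membrane, was lower at −1.38 (SD 0.60 between 2 probe sets). Kitl, the ligand of Kit, had 4 probe sets, the brightest at 14195 in DKK1 cells and 10947 in control cells, and was not called (0.47, or −0.15 with poly-A scaling). Its ligand was therefore measured on both arrays while Kit was not.

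The families that share an anchor or fold with the surface markers were read too. In the Ly6 superfamily, to which Ly6a belongs, 6 of 20 genes were measured and 1 was higher, with a median of 0.26 that turned to −0.30 with poly-A scaling and −0.06 with loess. Lynx1, a modulator of nicotinic receptors, had 510 and 2460 in DKK1 cells against 222 and 959 in control cells (1.25, and 0.62 with poly-A scaling). Ly6e, a relative of Ly6a, was not called, with 181 and 2588 in DKK1 cells against 94.6 and 1337 in control cells (0.89). Of 23 measured genes of GPI anchor synthesis, 3 were called higher and 1 lower, and the median was 0.34, or −0.26 with poly-A scaling. Piga, part of the enzyme for the first step of the anchor, had 215 in DKK1 cells and 1260 in control cells, 5.87-fold lower (−2.47). Pigp (1.52), of the same enzyme, Pigt (1.35), of the transamidase, and Dpm1 (1.03), of mannose donor synthesis, were higher. Each of these 3 calls ended with poly-A scaling, and that of Dpm1 ended under 7 alternatives in all. Interferon signalling genes were listed because interferons induce Ly6a. All 15 on the array were measured, and 5 were called higher and 0 lower, around a median of 0.64, or 0.05 with poly-A scaling. They were Ifit3 (3.93), Ifit1 (2.32), Irf7 (2.29), Usp18 (2.20) and, named after its value was seen, Stat2 (1.25), whose call ended under 5 alternatives (0.67 with poly-A scaling).

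Several of these markers also label other cell types, so lists of such cells were read beside them. Of 16 leukocyte markers 5 were measured, with 1 higher (Lyz2) and 1 lower (Laptm5), a median of 0.45 (−0.12 with poly-A scaling) and a summed signal of 1505 on the DKK1 array and 1224 on the control array. Both calls ended with dim signals raised. Ptprc (CD45), the defining leukocyte marker, had at most 5.89 in DKK1 cells and 11.7 in control cells. Of 10 endothelial markers 1 was measured (0.68, not called, with a list median of −0.40 without the filter), with a summed signal of 320 on the DKK1 array and 555 on the control array, and Pecam1 had 37.7 in DKK1 cells and 37.5 in control cells. Of 9 epithelial markers 2 were measured and none called, with a summed signal of 609 on the DKK1 array and 420 on the control array, a median of 0.70 (0.16 with poly-A scaling and −0.0033 without the filter), and Cdh1 at 22.6 in DKK1 cells and 13.3 in control cells. The part of such cells in the Cd24a difference was not tested. Of 8 fibroblast markers 6 were measured, with Pdgfra higher, none lower and a median of 0.04 (−0.60 with poly-A scaling). Of 10 osteoblast markers 7 were measured, with the keratan sulfate proteoglycan gene Omd higher (7.02) and Phex (−3.54) and Mef2c (−1.83) lower, and a median of 0.27 (−0.30 with poly-A scaling). With dim signals raised to the filter, Omd was 112-fold higher and Phex 2.80-fold lower at the deposited scaling. With poly-A scaling, and dim signals not raised, the log2 difference of Omd was 6.38. The Omd call held under all 12 alternatives, while those of Phex and Mef2c ended without the filter, where Mef2c was at −0.69, and with the stricter filter. Col1a1, a collagen chain of bone matrix, had up to 6263 in DKK1 cells and 2150 in control cells. Its 2 measured probe sets averaged 0.79, less than these highest signals give, so they disagree in size, and it was not called. Col1a2, its partner chain, had up to 24640 in DKK1 cells and 31456 in control cells, and averaged 0.05 over 3 measured probe sets (not called). Sp7, an osteoblast transcription factor, had 117 in DKK1 cells and 87.0 in control cells, and Alpl, the bone alkaline phosphatase, had 182 in DKK1 cells and 147 in control cells. Ibsp and Dmp1 were below the filter.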

How the data were processed

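The files give 1 value per probe set for each of the 2 arrays. The values are intensity on a linear scale, summarised with MAS5 by the authors before they were deposited, per the submitters' processing notes, with version and settings not given in the sources used here. Computed here, the signal averaged 500 on each array once 2% at either end was trimmed. RNA was biotin-labelled by a 3' in vitro transcription protocol, per the labels.

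Symbols came from the platform annotation, brought up to date with RefSeq gene IDs (GRCm38.p6). Of 45101 probe sets, 34958 have 1 symbol (34754 matched, 0 renamed), 932 have several and 9160 that are not controls are unnamed here. Some of the 64 control probe sets carry symbols and are within these counts of named probe sets, but none was used for a gene. The number of arrays limits the precision.

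The pseudocount of 16.6 is the 25th percentile of all signals. It moves differences of dim genes towards 0. The calculation was tested on simulated data with planted changes beyond 2-fold in genes well above the filter. That test does not cover calls near 2-fold or dim genes. Its simulated noise was smaller than the spread between probe sets in these data, and it held no scaling offset between arrays. It therefore does not show how reliable the calls here are. From each list up to 4 called genes with the largest differences were named, and Kitl, Has2, Myc, Klf2, Klf5, Ly6e, Ptprc and Pecam1 in any case. Further called genes are marked as named after their values were seen, and Sox2ot was added as a neighbour of Sox2. Cdh1, Col1a1, Col1a2, Sp7, Alpl, Ibsp and Dmp1 come from the cell type lists and were named outside this rule. Cell type markers checked against the labels are named for what they define. The genes and lists were chosen with earlier results of these data known. Python 3.11.15, pandas 2.3.3 and statsmodels 0.14.6 were used. The 12 alternatives changed the pseudocount, the filter, the treatment of dim signals, the scaling, the gene summary and the probe set type.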

Additional observations from a re-analysis of the deposited data

How the results depend on the processing

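No paired analysis was possible because each group has 1 array. The count of stem cell marker and pluripotency genes called higher was 1, and 2 without the filter, where Thy1 joined Cd24a. The count called lower was 1, and 2 without the filter (Pou5f1 joined Klf4), 2 with poly-A scaling (Sox2 joined Klf4) and 0 with hybridisation scaling. The other alternatives left both counts at 1. Under poly-A scaling the differences were 2.99 for Cd24a, −0.49 for Cd44, −1.93 for Klf4 and −1.26 for Sox2, and under the other alternatives each of these moved by less than the pooled SD between probe sets of 0.45. Over all genes, the 1293 called higher became 711 with the stricter filter, which tests 7097 genes, 2387 with hybridisation scaling and 509 with poly-A scaling. The 764 called lower became 400 with hybridisation scaling and 2557 with poly-A scaling. Of the list genes, 42 were called, and 25 with the stricter filter. No detection call or replicate was used, so for the 5 dim genes neither presence nor direction is settled.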
